A study of Homo sapiens with 6 samples.

Results

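HT29 cells deprived of histidine were compared directly with HT29 cells deprived of tryptophan. HT29 is a human colorectal adenocarcinoma line, labelled wild type, and every condition lasted 48 h. The comparison used 4 of the 6 RNA-seq libraries of the series, 2 per depletion, and the 2 libraries of untreated cells in control medium served as background. Genes entered the test if their mean over the 6 libraries was at least 10 normalized counts, which held for 18264 of the 60676 genes listed. RPMI was the base of the medium without histidine and DMEM F-12 that of the medium without tryptophan. Both held dialyzed serum, and the base of the control medium for RNA-seq is not named in the sources used here. The missing amino acid and the base medium therefore cannot be told apart in any difference given here. No source says that the 2 libraries of a condition came from separate cultures, so p-values measure the spread between these libraries, which may be technical.

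Cells sense the lack of an amino acid along several routes. Uncharged tRNA activates the kinase GCN2, which phosphorylates eIF2alpha, slows general translation and favours translation of ATF4, a transcription factor for amino acid transport and synthesis genes. In parallel, mTORC1 on the lysosome loses activity, which lowers protein and ribosome synthesis. Histidine is also the precursor of histamine, and tryptophan the precursor of serotonin and of kynurenine, a ligand of the aryl hydrocarbon receptor.

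The 6 libraries held 46390819 to 64388876 recovered reads, and protein-coding genes took 96.9% to 97.5% of them. Of 13 markers of colon epithelium, 12 were tested and none was at 0 in all libraries. Their summed level was 584362 and 617646 normalized counts in the histidine-depleted libraries and 646264 and 642141 in the tryptophan-depleted ones. By gene, 9 of the 12 were lower after histidine than after tryptophan depletion, 5 of them with a log2 difference of 1 or more, and 3 were higher (median -0.80), against 38% of all tested genes lower and 38.7% higher. Of 16 leukocyte and mast cell markers, 10 had at most 3 reads in every library, and CPA3, FCER1A, KIT, MS4A1 and TPSAB1 were at 0 in all of them. The summed level of that list was 13483 and 15564 after histidine depletion, 39943 and 39908 after tryptophan depletion and 67279 and 72162 untreated, most of it from LYZ (12419 and 14442, 38031 and 38058, and 64763 and 69381), a lysozyme that gut epithelium can also make. The fibroblast and endothelial markers summed to 98.2 to 156.3.

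In the text that follows, "higher" and "lower" refer to histidine depletion relative to tryptophan depletion, and a fold change is on the scale log2(normalized count + 1). Of the 18264 genes tested, 7068 were higher (38.7%) and 6938 lower (38%) by limma at an adjusted p under 0.05. By at least 1 on the log2 scale, 2914 were higher (16%) and 2880 lower (15.8%). The median over all tested genes was 0.011. The joint scaling itself largely sets this centre, so a shift shared by most genes would not be seen. The median absolute fold change was 0.652, against 0.0807 between the histidine-depleted replicates and 0.0664 between the tryptophan-depleted ones. Because most genes passed the test, the size of a difference tells more here than its call, and the counts of list members are to be read against these shares. In bulk RNA, fewer cells of a type and less RNA per cell cannot be told apart. Among lncRNAs, 733 of 2764 tested were higher and 922 lower.

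**Figure D1:**
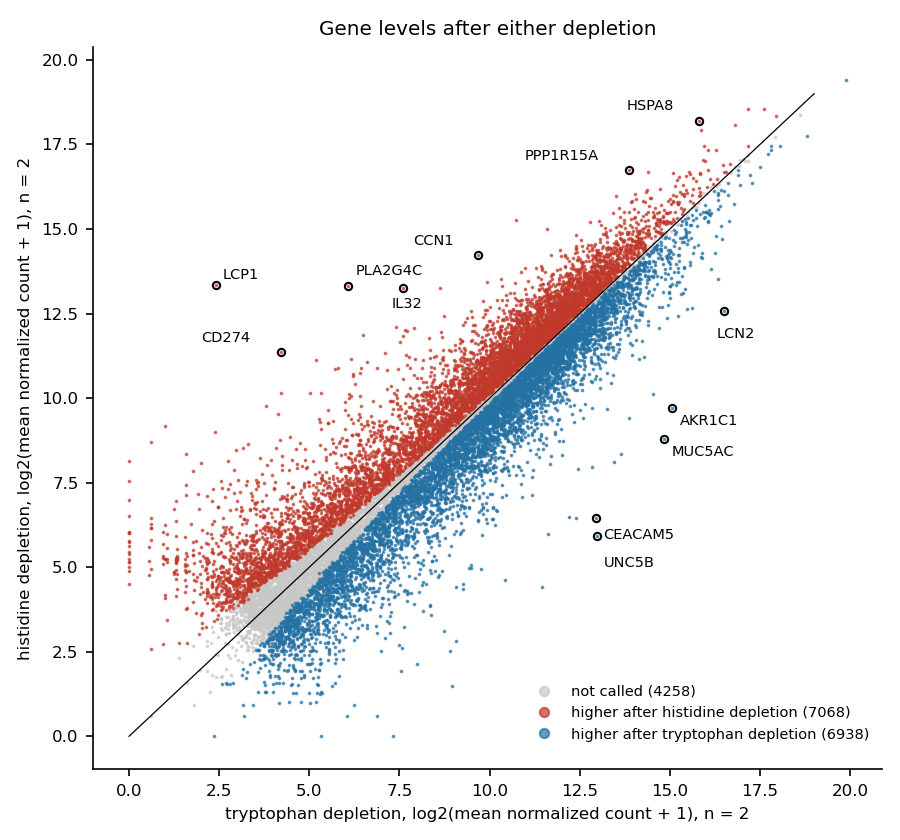
Mean level of each tested gene after tryptophan depletion (horizontal) and after histidine depletion (vertical), as log2(mean normalized count + 1) over 2 libraries each. Red points were higher (7068 genes) and blue points lower (6938 genes) after histidine than after tryptophan depletion, grey points were not called (4258 genes), and the line marks equal levels. Among the labelled genes, LCP1 lies farthest above the line, and UNC5B and CEACAM5 lie far below it.

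The largest difference belonged to LCP1, the gene of the actin-bundling protein L-plastin, known mainly from leukocytes and from some carcinomas (chromosome 13, 46125920 to 46211871, minus strand, GRCh38). It had 10642 and 9967 normalized counts after histidine depletion, 2.13 and 6.41 after tryptophan depletion and 6.56 and 1.99 untreated. Both histidine-depleted libraries were thus far above the other 4 (log2 fold change 11.06, SE 0.371, limma adjusted p = 2.15e-14). A neighbour on the opposite strand overlaps 19.0% of its exonic length, and whether the counting used strand is not stated.

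PLA2G4C, a cytosolic phospholipase A2 (chromosome 19, 48047843 to 48110817), had 10524 and 10003 normalized counts after histidine depletion against 55.5 and 76.9 after tryptophan depletion and 33.9 and 37.8 untreated. The groups did not overlap, and the ratio of the means was 155 (log2 fold change 7.27, SE 0.126, limma adjusted p = 1.12e-17). CD274, which encodes the immune checkpoint ligand PD-L1 (chromosome 9, 5450503 to 5470566), stood at 2804 and 2424 against 14.9 and 20.1, with 37.2 and 31.8 untreated. Its mean was 149 times as high (log2 fold change 7.15, SE 0.166, limma adjusted p = 2.08e-16).

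Several genes had almost no reads outside the histidine-depleted libraries. MARCHF4, a membrane-bound E3 ubiquitin ligase, had 273.8 and 287.9 normalized counts there and none in the tryptophan-depleted or untreated libraries, which makes it at least 94.4-fold higher when the empty group is given 3 reads in each library. IL7R, the interleukin-7 receptor chain, had 112 and 141.4 against 0 and 0, at least 42.6-fold higher on the same basis. RELN, which encodes the secreted glycoprotein reelin, had 415.6 and 411.1 against 1.07 and 0. The long noncoding RNA LINC02725 on chromosome 11 had 173.5 and 200.4 and was at 0 in the other 4 libraries. Of all genes called higher, 103 had at most 3 reads in both tryptophan-depleted libraries, and of those called lower, 52 had at most 3 reads in both histidine-depleted ones.

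At the other end stood genes that were high after tryptophan depletion. UNC5B, a netrin receptor of the dependence-receptor class (chromosome 10, 71212570 to 71302864), had 45.2 and 73.3 normalized counts after histidine depletion, 8060 and 7983 after tryptophan depletion and 302.8 and 349.1 untreated. The untreated libraries lay between both depletions (log2 fold change -7.10, SE 0.144, limma adjusted p = 5.12e-17). CEACAM5, the carcinoembryonic antigen (chromosome 19, 41708585 to 41730433), showed the same order, with 66.9 and 104.8, then 497.3 and 540.1 untreated, then 7952 and 7856 after tryptophan depletion. It was the largest difference within the colon epithelial markers (log2 fold change -6.54, SE 0.13, limma adjusted p = 4.58e-17). ITPKA, an inositol trisphosphate kinase, had 22.6 and 18.3 against 2753 and 2864 (log2 fold change -7.04), and TRPV6, an epithelial calcium channel, 25.3 and 21.4 against 1261 and 1463 (log2 fold change -5.81). KLHDC7B, a kelch-domain gene, had 3.61 and 0 against 466.3 and 520.1.

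**Figure D2:**
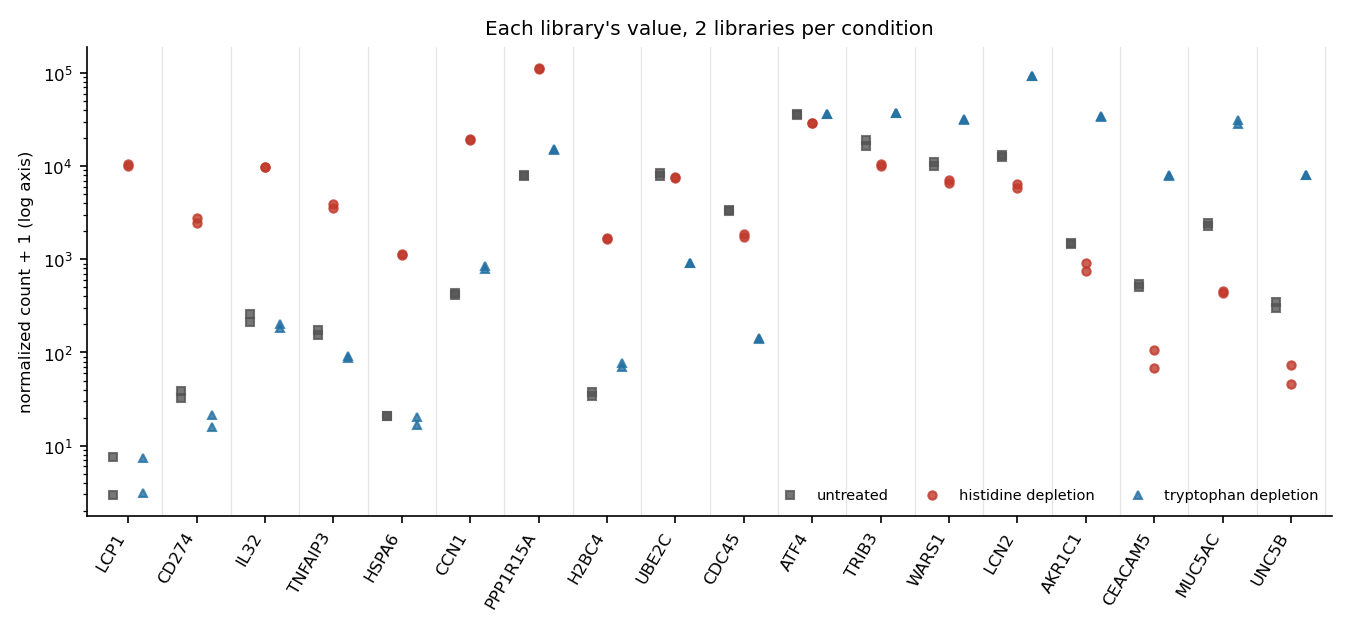
Normalized count + 1 of 18 named genes in each library on a log axis, with squares for untreated cells, circles for histidine depletion and triangles for tryptophan depletion, 2 libraries each. The pairs of libraries lie close together, LCP1 to CDC45 are highest in the histidine-depleted libraries or lowest in the tryptophan-depleted ones, and TRIB3 to UNC5B are highest in the tryptophan-depleted ones.

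The ATF4 pathway was the first point of interest, since the lack of any amino acid can engage it. Of 36 listed ATF4 targets, 34 were tested, and 29 were lower and 2 higher after histidine than after tryptophan depletion. Their median fold change was -1.17, against 0.011 for all tested genes, and it ranged from -1.21 to -1.12 over the 4 pairs of a histidine-depleted with a tryptophan-depleted library. Against the untreated libraries, which both comparisons share, the list median was -0.27 after histidine and 0.93 after tryptophan depletion.

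ATF4 itself, whose control is largely translational, differed little, with 29293 and 29332 normalized counts after histidine depletion, 36095 and 36416 after tryptophan depletion and 35399 and 36172 untreated (log2 fold change -0.31, SE 0.0388, limma adjusted p = 1.33e-06). TRIB3, a pseudokinase that restrains the same pathway, had 10126 and 10577 against 36988 and 36856, with 16310 and 19062 untreated. The tryptophan-depleted libraries were the highest and the histidine-depleted the lowest of the 6 (log2 fold change -1.83, SE 0.055, limma adjusted p = 5.07e-15). DDIT3, which encodes CHOP, followed another order, with 1198 and 1177 untreated, 2011 and 1806 after histidine and 4758 and 4739 after tryptophan depletion (log2 fold change -1.32, limma adjusted p = 1.91e-13).

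Amino acid synthesis genes of the list were lower too. ASNS, the asparagine synthetase, had 375.9 and 413.1 normalized counts against 819.5 and 854.3 (log2 fold change -1.08, limma adjusted p = 1.85e-09), but 49.3% of its exonic length is shared with a neighbour on the same strand. CTH, which makes cysteine from cystathionine, had 437.3 and 454.8 against 2763 and 2573 (log2 fold change -2.58), while PSAT1 of serine synthesis was at a fold change of -1.53. The hormones of the list lay lowest. FGF21 had 38.9 and 39.7 against 352.1 and 351.6 (log2 fold change -3.13, limma adjusted p = 1.86e-10), and FGF19 614.4 and 744.8 against 6129 and 6161 (log2 fold change -3.18, limma adjusted p = 5.87e-17). GDF15, a stress-induced cytokine, was at -2.21 and NUPR1, a stress-induced nuclear protein, at -2.99. The called exceptions were ATF3 (0.50) and PPP1R15A (2.88), and ALDH1L2, ATF5 and SLC3A2 were not called.

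Promoter windows from RefSeq (GRCh38.p14, 250 bases before to 50 after the start site) were found for 27 of the 34 tested targets. The C/EBP-ATF response element was searched as TGATGNAA on both strands and was present in 6 of these 27 windows (22.2%), namely those of ASNS, CHAC1, ATF3, FGF21, SLC3A2 and SLC7A1. Over the windows of 11651 tested genes it was present in 1.81%, with 1.63% of those higher and 1.79% of those lower, and over all 27305 windows in 3.67%. The element of CHAC1, a glutathione-degrading enzyme with a fold change of -1.31 (chr15:40953222-40953309, plus strand), and that of FGF21 (chr19:48755430-48755517, plus strand) are shown 5′ to 3′ in the gene's direction, with the matched bases in capitals, because these genes were among the lower targets. A match describes the letters only.
CHAC1: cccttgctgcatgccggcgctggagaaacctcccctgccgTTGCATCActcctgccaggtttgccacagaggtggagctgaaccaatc
FGF21: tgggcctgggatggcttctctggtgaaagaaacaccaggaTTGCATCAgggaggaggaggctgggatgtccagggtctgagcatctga

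Among 15 genes of eIF2alpha phosphorylation, 9 were higher and 4 lower, with a median of 0.15, which was 0.023 with quantile normalization. PPP1R15A, which encodes GADD34, the inducible subunit that directs dephosphorylation of eIF2alpha (chromosome 19, 48872212 to 48876059), had 111972 and 108737 normalized counts after histidine depletion, 14770 and 15288 after tryptophan depletion and 7829 and 7954 untreated. Its mean was 7.34 times as high (log2 fold change 2.88, SE 0.0392, limma adjusted p = 8.74e-19). The constitutive counterpart PPP1R15B had 17656 and 16686 against 16426 and 17104, groups that overlapped, with a 95% confidence interval of the log2 difference from -0.052 to 0.12 (limma adjusted p = 0.453), though quantile normalization gave -0.11 (limma adjusted p = 0.0117). EIF2S1, the eIF2alpha subunit itself, had 13161 and 12960 against 5550 and 5699 (log2 fold change 1.22, limma adjusted p = 1.21e-14).

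The kinases differed among themselves. EIF2AK4, which encodes GCN2, had 4081 and 4086 against 3732 and 3795 (log2 fold change 0.12, limma adjusted p = 0.0142), and EIF2AK3, which encodes the endoplasmic reticulum kinase PERK, 1140 and 1016 against 2176 and 2337 (log2 fold change -1.07, limma adjusted p = 4.14e-11). The EIF2AK4 call was lost without either tryptophan-depleted library at log2 fold changes of 0.095 and 0.12 (limma adjusted p = 0.163 and 0.0734), without the trend (0.12, limma adjusted p = 0.0509) and with quantile normalization (0.023, limma adjusted p = 0.557). The heme-regulated EIF2AK1 and the RNA-activated EIF2AK2 were also lower, at -0.82 and -0.97.

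Of 24 cytosolic aminoacyl-tRNA synthetases and complex subunits, which charge tRNAs with amino acids, 9 were higher (37.5%) and 10 lower (41.7%), with a median of -0.0055. These shares are close to the 38.7% and 38% of all tested genes. The enzymes of the withdrawn amino acids were among those that differed. HARS1, the histidyl-tRNA synthetase (chromosome 5, 140673035 to 140691537), had 5897 and 5759 normalized counts after histidine depletion, 3574 and 3790 after tryptophan depletion and 4414 and 4587 untreated (log2 fold change 0.66, SE 0.0431, limma adjusted p = 1.81e-10). WARS1, the tryptophanyl-tRNA synthetase (chromosome 14, 100333790 to 100376805), had 6585 and 7089 against 31361 and 32051, with 10067 and 11056 untreated (log2 fold change -2.21, SE 0.0477, limma adjusted p = 9.07e-17). For each of these genes the untreated libraries lay between both depletions, and WARS1 had the lowest fold change of the list.

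The mitochondrial counterparts went the other way, with HARS2 at 1511 and 1516 against 2767 and 2793 (log2 fold change -0.88, limma adjusted p = 4.81e-12) and WARS2 at 1915 and 1864 against 973.2 and 983.4 (log2 fold change 0.95, limma adjusted p = 1.09e-11). QARS1, the glutaminyl-tRNA synthetase, had 4470 and 4641 against 8597 and 8189, both below the 12630 and 12984 of untreated cells (log2 fold change -0.88, limma adjusted p = 1.61e-12). The subunits of the phenylalanyl enzyme diverged. FARSA had 6025 and 6525 against 2560 and 2662 (log2 fold change 1.26), and FARSB 2596 and 2547 against 4941 and 5052 (log2 fold change -0.96). AARS1 and GARS1, for alanine and glycine, were at -1.62 and -1.36.

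**Figure D3:**
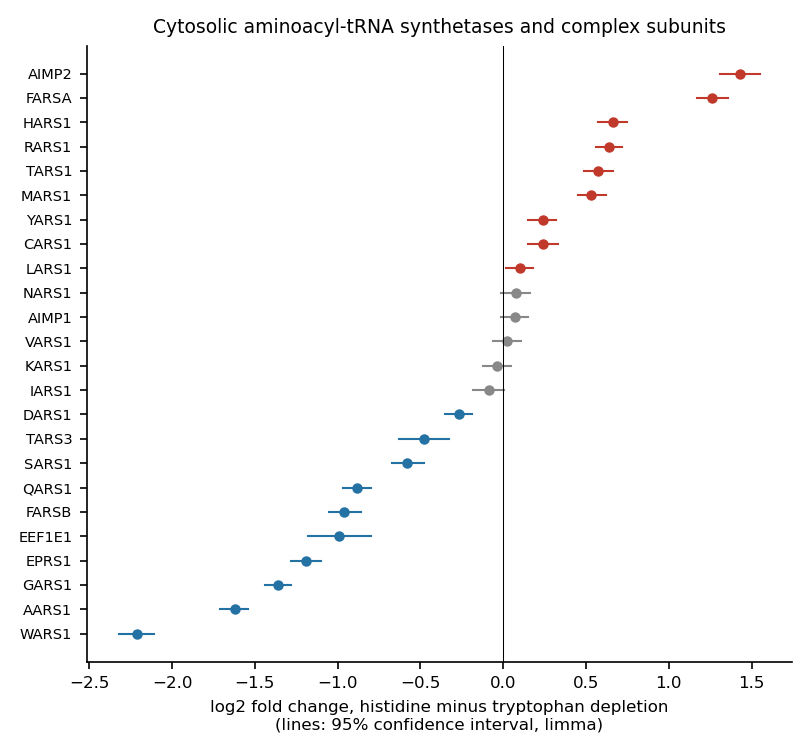
Log2 fold change, histidine minus tryptophan depletion, of 24 cytosolic aminoacyl-tRNA synthetases and complex subunits, with lines for the 95% confidence interval from limma (2 libraries per condition). Red points were higher (9), blue points lower (10) and grey points not called. HARS1 lies at 0.66 and WARS1, the lowest, at -2.21.

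Wobble uridine modification of tRNA, which adds a thiol and a methoxycarbonylmethyl group to anticodons such as that of tRNA(Gln), was covered by 16 genes, of which 12 were higher and 3 lower (median 0.50, from 0.50 to 0.53 over the 4 library pairs). URM1, the ubiquitin-like sulfur carrier of the thiolation step, had 8166 and 8440 normalized counts against 5091 and 5150, with 5746 and 5903 untreated (log2 fold change 0.70, SE 0.0392, limma adjusted p = 2.46e-11). MOCS3, which activates URM1, had 2705 and 2768 against 935.8 and 966 (log2 fold change 1.52), and ALKBH8, which completes the methyl ester, 2078 and 2084 against 802.5 and 847.9 (log2 fold change 1.33). The thiolases CTU1 and CTU2 were at 0.23 and 0.48. The Elongator complex, which acts before thiolation, was mixed, since ELP2, ELP4 and ELP6 were higher (0.53, 1.08 and 1.04) whereas the catalytic ELP3 was lower at -0.63. ELP3 had 1533 and 1587 against 2369 and 2455 (limma adjusted p = 1.52e-09). GTPBP3, a member of the same list that acts on mitochondrial tRNA instead, was lower by more. It had 185.2 and 228.9 against 480.2 and 504.5 (log2 fold change -1.25, limma adjusted p = 1.59e-09).

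Amino acid transporters, with 28 of 34 tested, showed 8 higher and 12 lower and a median of -0.094, which was -0.47 when a mean of at least 50 was required. SLC6A9 and SLC1A4, carriers of glycine and of small neutral amino acids, were lower at -2.18 and -1.79, with SLC6A9 at 1203 and 1205 against 5489 and 5452 normalized counts. SLC7A5, the large neutral amino acid carrier that takes up tryptophan and histidine, had 37248 and 39586 against 66861 and 69748 (log2 fold change -0.83, limma adjusted p = 4.27e-11). Its partner SLC3A2 had 42879 and 42893 against 44303 and 46259 and was not called, with an interval from -0.16 to 0.0087, and both were above the 20850 and 21623 of untreated cells. SLC38A2 was lower at -0.67, whereas SLC38A1, with 52628 and 51714 against 51002 and 53429, was not called. SLC43A2, another neutral amino acid carrier, was higher, with 1496 and 1540 against 525 and 541.2 (log2 fold change 1.51, limma adjusted p = 1.99e-13).

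Of 33 tested genes of mTORC1 amino acid sensing, 10 were higher and 14 lower (median -0.10). The inhibitors SESN2 and DDIT4, both also ATF4 targets, were lower. DDIT4 had 2232 and 2439 normalized counts against 11098 and 11515 (log2 fold change -2.28), and SESN2 3291 and 3435 against 9078 and 9391 (log2 fold change -1.46). AKT1S1, which encodes the mTORC1 inhibitor PRAS40, was higher with 25055 and 25167 against 8566 and 8675 (log2 fold change 1.54), and MTOR was lower at -0.80.

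Genes specific to the withdrawn amino acids were few. Of 13 genes of histidine and histamine metabolism, 8 were tested, with 5 higher and 3 lower (median 0.49). HRH1, the histamine H1 receptor (chromosome 3, 11137093 to 11263557), had 3506 and 3433 normalized counts after histidine depletion against 562.4 and 586.9 after tryptophan depletion and 454.7 and 425.7 untreated (log2 fold change 2.59, SE 0.06, limma adjusted p = 2.08e-16). AOC1, the diamine oxidase that degrades histamine in the gut, had 453.6 and 563.7 against 1178 and 1162 (log2 fold change -1.21). HDC, which makes histamine from histidine, was below the filter, with 1.8 to 7.1 normalized counts over the 6 libraries. On the tryptophan side, 8 of 16 genes were tested and 5 were lower and 2 higher (median -0.90). The median rested on the members that passed the filter, since it was -0.081 without a filter. KYNU, the kynureninase, had 241.2 and 250.3 against 769.4 and 738 (log2 fold change -1.61), and IL4I1, a secreted oxidase of aromatic amino acids, was higher at 70.5 and 58 against 10.7 and 18.3 (log2 fold change 2.11). IDO1 was at 0 in all libraries.

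Of 11 tested targets of the aryl hydrocarbon receptor, 8 were lower and 1 higher (median -0.65). CYP1A1, the best known of them, had 78.6 and 64.1 normalized counts against 83.2 and 64.1, with 6.56 and 3.98 untreated, and the interval of the difference ran from -0.65 to 0.56. The groups overlapped for CYP1A1, and both depletions were above untreated cells. CYP1B1, its relative, had 243.9 and 222.8 against 2265 and 2424 (log2 fold change -3.32, limma adjusted p = 3.59e-16), and ALDH3A1, an aldehyde dehydrogenase that is also an NRF2 target, 235.8 and 241.1 against 5772 and 5465 (log2 fold change -4.55, limma adjusted p = 2.59e-19).

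The protein-making machinery differed by part. Ribosomal protein genes, all 79 tested, included 44 lower and 22 higher with a median of -0.17, from -0.19 to -0.14 over the 4 library pairs, and 6 were lower by at least 1. RPL37 had 19154 and 21061 normalized counts after histidine depletion against 80391 and 76777, with 62991 and 66633 untreated (log2 fold change -1.97, limma adjusted p = 6.32e-16). RPL12 and RPS19 were at -1.76 and -1.74, RPS3 was not called at 133144 and 140722 against 136344 and 133339, and RPL11 was the highest at 0.71. These genes have many processed copies in the genome, 15 bearing the name of RPL37 and 50 that of RPL12, so reads may be split in a way that is not known.

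Ribosome biogenesis factors leaned the opposite way, with 40 of 54 higher and 7 lower (median 0.49). RRP9, GRWD1 and PNO1, which act in small or large subunit assembly, were at 1.68, 1.62 and 1.61. NPM1, the nucleolar phosphoprotein, had 102335 and 100355 against 48329 and 48214 (log2 fold change 1.07), while the rRNA methyltransferase gene FBL was lower at -0.35 and NOLC1 was not called (interval from -0.10 to 0.058). Of 48 tested translation factors, 28 were higher and 15 lower (median 0.28). EIF4E, the cap-binding protein, had 10079 and 9828 against 3144 and 3231 (log2 fold change 1.64, limma adjusted p = 4.18e-16), and its inhibitor EIF4EBP1 3234 and 3480 against 8936 and 9017 (log2 fold change -1.42, limma adjusted p = 4.9e-14). EIF4G2 was not called (interval from -0.059 to 0.14), though quantile normalization gave -0.10 (limma adjusted p = 0.00371).

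All 19 tested heat shock genes, cytosolic but for the mitochondrial chaperonin HSPD1 (0.69), were higher, with a median of 1.49 (1.47 to 1.51 over the 4 library pairs) and 15 of them by at least 1. Their median against the untreated libraries was 1.57 after histidine and 0.14 after tryptophan depletion. HSPA6, a strictly inducible HSP70 (chromosome 1, 161524540 to 161526894), had 1116 and 1132 normalized counts after histidine depletion, 19.2 and 15.6 after tryptophan depletion and 19.7 and 19.9 untreated. Its mean was 64.7 times as high (log2 fold change 5.94, SE 0.18, limma adjusted p = 5.69e-15). HSPA8, the constitutive and very abundant HSC70 (chromosome 11, 123057489 to 123063230), had 305750 and 297712 against 56783 and 57472, with 101679 and 101847 untreated. The untreated libraries thus lay between both depletions (log2 fold change 2.40, SE 0.0463, limma adjusted p = 3.01e-17).

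The inducible pair HSPA1A and HSPA1B, which are nearly identical and may share reads, were at 2.54 and 1.73. HSPH1, HSP90AA1, DNAJB1 and HSPB1, a nucleotide exchange factor, the inducible HSP90, an HSP40 and a small heat shock protein, were at 2.29, 1.57, 1.43 and 1.30. HSF1, the transcription factor of these genes, was at 0.83, and the smallest difference was that of the co-chaperone BAG3 (0.57).

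A heat shock element, searched on both strands as the blocks GAA, TTC and GAA with 2 free bases between neighbours, was present in the promoter windows of HSPA8, HSPA6, DNAJA1 and DNAJB6, or 4 of the 18 found (22.2%), against 0.335% of the windows of tested genes and 0.487% of all windows. The stretches of HSPA6 (chr1:161524426-161524518, plus strand) and of HSPA8 (chr11:123062314-123062386, minus strand) are shown with the element in capitals, because these genes had the largest difference and the largest counts of the family. HSPA8 has a further match nearer its start site, outside the stretch shown.
HSPA6: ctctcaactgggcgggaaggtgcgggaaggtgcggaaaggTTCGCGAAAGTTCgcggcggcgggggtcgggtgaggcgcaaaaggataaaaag
HSPA8: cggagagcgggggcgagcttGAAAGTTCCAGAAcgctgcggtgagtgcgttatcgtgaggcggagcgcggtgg

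Genes of the unfolded protein response in the endoplasmic reticulum mostly went the other way. Of 24 tested, 20 were lower and 3 higher (median -0.56). Their medians against untreated were 0.37 after histidine and 0.90 after tryptophan depletion. HSPA5, which encodes BiP, had 55703 and 54184 normalized counts after histidine depletion, 110556 and 113155 after tryptophan depletion and 32206 and 34388 untreated (log2 fold change -1.03, limma adjusted p = 7.9e-13). SEL1L, of the degradation complex of the endoplasmic reticulum, had 5123 and 5069 against 17862 and 18218 (log2 fold change -1.82), and ERN1, which encodes the sensor IRE1, was at -1.43. XBP1, the transcription factor that IRE1 splices, was one of the higher members at 0.83, and the lectin chaperone CANX was not called (interval from -0.019 to 0.18).

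NRF2 targets and aldo-keto reductases showed some of the largest lower values, with 22 of 27 lower and 3 higher (median -1.21, from -1.24 to -0.87 over the library pairs). AKR1C1, a reductase of ketosteroids and other carbonyls (chromosome 10, 4963253 to 4983283), had 757.1 and 900.5 normalized counts after histidine depletion, 33947 and 34553 after tryptophan depletion and 1455 and 1509 untreated. The ratio of the means was 41.3 in favour of tryptophan depletion (log2 fold change -5.37, SE 0.0604, limma adjusted p = 7.63e-20). AKR1C2, a near-identical neighbour that may share reads with AKR1C1, had 72.3 and 100.7 against 5344 and 5461 (log2 fold change -5.97), and AKR1B10, a related retinal reductase, 263.8 and 291 against 11351 and 10939 (log2 fold change -5.32). NQO1 had 8621 and 9413 against 31723 and 32538, with 28619 and 29468 untreated (log2 fold change -1.83). GCLC and GSR of glutathione metabolism were at -1.21 and -1.45, and HMOX1 was higher at 0.64. The antioxidant response element TGACNNNGC was present in 5 of the 19 windows found (26.3%), against 15.1% of the windows of tested genes.

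Metal genes included 11 lower and 6 higher of 19 tested (median -0.40). The ferritin chains FTH1 and FTL, which store iron, were lower at -1.69 and -1.05, with FTH1 at 10324 and 9891 against 32726 and 32614. SLC40A1, the iron exporter, and SLC30A1, a zinc exporter, were at -1.96 and -2.34. MT2A, a metallothionein, had 1078 and 1111 against 160.1 and 175.8, with 741.1 and 757.9 untreated (a ratio of 6.52, limma adjusted p = 2.33e-15), whereas MT1X was lower at -1.41.

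Autophagy and lysosome genes were higher in 22 and lower in 9 of 35 (median 0.31). SQSTM1, the autophagy receptor p62 (chromosome 5, 179806398 to 179838078), had 249843 and 252426 normalized counts after histidine depletion, 59254 and 59743 after tryptophan depletion and 19426 and 20579 untreated (log2 fold change 2.08, SE 0.0442, limma adjusted p = 7.96e-17). Both depletions were thus above untreated cells, the histidine-depleted libraries more so. WIPI1, an early autophagosome protein, had 612.6 and 616.6 against 2530 and 2522 (log2 fold change -2.04), and the lysosomal master regulators TFEB and TFE3 were at -1.37 and 1.36.

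Of 24 NF-kB subunits and regulators, 21 were higher and 1 lower, with a median of 1.63 (1.61 to 1.63 over the library pairs). Against untreated cells the list median was 1.07 after histidine and 0.18 after tryptophan depletion. Among the subunits, RELA had 30485 and 31078 normalized counts after histidine depletion, 9582 and 9430 after tryptophan depletion and 6819 and 7234 untreated (log2 fold change 1.69, limma adjusted p = 2.62e-16). NFKB1, NFKB2 and RELB were at 1.93, 2.09 and 2.26. TNFAIP3 and BIRC3, both induced by NF-kB, had the largest differences of the list. TNFAIP3, the deubiquitinase A20 (chromosome 6, 137867214 to 137883314), had 3913 and 3519 against 86.4 and 89.7, with 174.9 and 154.2 untreated (log2 fold change 5.38, SE 0.0923, limma adjusted p = 9.91e-18). BIRC3, the ubiquitin ligase cIAP2 (chromosome 11, 102317484 to 102339403), had 9841 and 9513 against 402.3 and 385.5 (log2 fold change 4.62, SE 0.0712, limma adjusted p = 3.16e-18). NFKBIA, which encodes IkB alpha, was at 1.03, IKBKG, the NEMO subunit, was lower at -0.32, and NFKBIZ was not called (interval from -0.24 to 0.06).

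The NF-kB motif, searched by its usual consensus on both strands, was present in 8 of the 21 windows found (38.1%), against 13% of the windows of tested genes and 10.8% of all windows. That of TNFAIP3 (chr6:137867152-137867241, plus strand) is shown with 2 matches in capitals, and that of BIRC3 (chr11:102317245-102317334, plus strand) with the farther of its 2 matches.
TNFAIP3: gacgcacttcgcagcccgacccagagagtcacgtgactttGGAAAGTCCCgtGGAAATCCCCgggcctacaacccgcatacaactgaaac
BIRC3: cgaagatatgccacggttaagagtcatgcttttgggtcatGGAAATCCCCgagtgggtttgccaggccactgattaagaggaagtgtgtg

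Cytokines and chemokines, with 34 of 45 tested, were higher in 20 and lower in 5 (median 0.76, from 0.66 to 0.88 over the library pairs). IL32, a proinflammatory cytokine (chromosome 16, 3065297 to 3082192), had 9854 and 9817 normalized counts after histidine depletion, 200.6 and 183.1 after tryptophan depletion and 208.8 and 255.6 untreated (log2 fold change 5.67, SE 0.083, limma adjusted p = 1.87e-18). IL23A, the p19 subunit of interleukin-23, had 1216 and 1053 against 34.1 and 28.4 (log2 fold change 5.14), and LTB, lymphotoxin beta, 204.2 and 174 against 12.8 and 8.24 (log2 fold change 4.07). For CXCL8, the neutrophil chemokine, the histidine-depleted libraries at 175.3 and 180.1 were close to the untreated ones at 209.9 and 203.9, while the tryptophan-depleted ones were at 21.3 and 34.8 (log2 fold change 2.66). IL34 and TNFSF10, the ligand TRAIL, were lower at -3.22 and -1.21. Among 31 tested receptors, 13 were higher and 10 lower (median -0.022), with the lipopolysaccharide receptor TLR4 at 3.64 and IL20RA at -2.65. TNFRSF10B, a TRAIL receptor, had 13599 and 13305 against 13584 and 13735, with 6756 and 6654 untreated, and was not called.

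Antigen presentation genes were higher in 20 and lower in 5 of 26 tested (median 0.78). Besides CD274, the list held ULBP2, a ligand of the natural killer receptor NKG2D, at 2383 and 2315 against 322.3 and 327.8 (log2 fold change 2.85). HLA-DMA and HLA-DMB, chaperones of class II loading, were lower at -1.37 and -2.05. CD74, the class II invariant chain, was higher at 126.5 and 145.5 against 19.2 and 24.7, with 122.4 and 121.3 untreated (log2 fold change 2.58). Interferon-stimulated genes were split, with 21 higher and 26 lower of 53 (median -0.36, from -0.52 to -0.19). GBP1 had 2371 and 2391 against 179.3 and 250 (log2 fold change 3.49) and RSAD2, the antiviral protein viperin, 621.6 and 613.5 against 89.6 and 130 (log2 fold change 2.50), whereas DHX58, a regulator of RNA sensing, was lower at -1.49.

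Antimicrobial proteins were also split, with 4 higher and 6 lower of 12 tested (median -0.96). LCN2, a siderophore-binding lipocalin (chromosome 9, 128149071 to 128153453), had 5826 and 6448 normalized counts after histidine depletion, 92965 and 91496 after tryptophan depletion and 12420 and 13147 untreated (log2 fold change -3.91, SE 0.0473, limma adjusted p = 1.95e-19). The list median varied with the libraries and the filter used. It was -0.054 without tryptophan depletion replicate 1 and -0.41 without untreated replicate 2. With a mean of at least 50 it was 0.047, and without a filter -0.24. PI3, the elastase inhibitor elafin, was higher, with 298.2 and 279.8 against 8.54 and 20.1 (log2 fold change 4.35). SAA1, an acute phase protein, had 80.4 and 71.2 against 1.07 and 0.

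**Figure D4:**
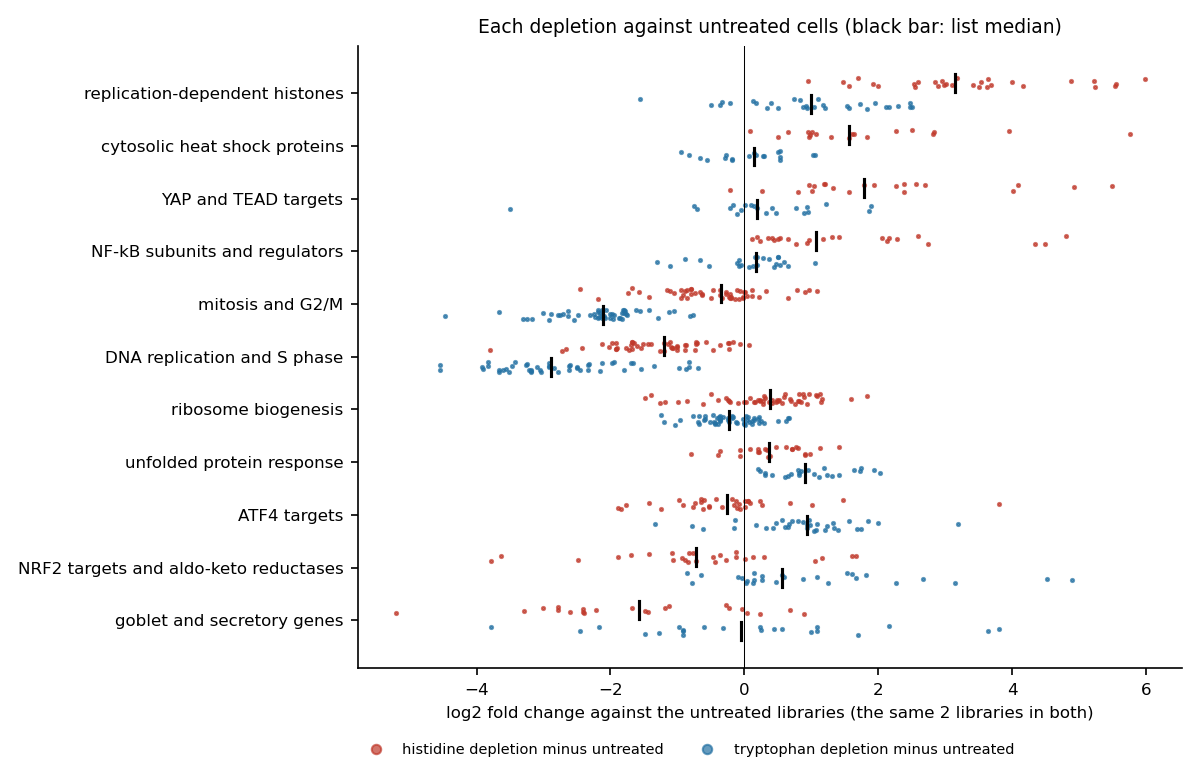
Log2 fold change of each tested member of 11 gene lists against the untreated libraries, in red for histidine and in blue for tryptophan depletion, with black bars at the list medians. Both comparisons use the same 2 untreated libraries. Heat shock genes lie at a median of 1.57 after histidine and 0.14 after tryptophan depletion, and mitotic genes at -0.34 and -2.10.

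Targets of YAP and TEAD, the transcription factors of the Hippo pathway, were higher in 19 and lower in 2 of 21 tested (median 1.78, from 1.76 to 1.80). CCN1, a secreted matrix protein (chromosome 1, 85580761 to 85584589), had 19560 and 18983 normalized counts after histidine depletion, 784.3 and 837.8 after tryptophan depletion and 414.2 and 437.6 untreated (log2 fold change 4.57, SE 0.0513, limma adjusted p = 7.63e-20). Its relative CCN2 had 12392 and 11972 against 2354 and 2866, with 714.8 and 710.2 untreated (log2 fold change 2.23). ANKRD1 had 214.1 and 246.2 against 2.13 and 2.75, with 32.8 and 43.8 untreated. TGM2, a transglutaminase, and DOCK5 were the lower members, at -0.94 and -0.10. The TEAD motif GGAATG was present in 6 of the 14 windows found (42.9%), against 11.1% of the windows of tested genes.

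Immediate early genes were higher in 21 and lower in 2 of 27 (median 0.71). JUN had 19138 and 18876 against 3909 and 4215 (log2 fold change 2.23), FOSL1 14828 and 14573 against 2412 and 2562 (log2 fold change 2.56) and FOSB 5414 and 5279 against 734.2 and 725.2 (log2 fold change 2.87). FOS and EGR1 were the lower members, at -0.42 and -0.19. Of 20 tested ERK feedback genes, 14 were higher and 4 lower (median 0.51). DUSP10, which acts on p38 and JNK rather than on ERK, had 2225 and 2057 against 93.9 and 97.1 (log2 fold change 4.47, limma adjusted p = 7.96e-17), the ephrin receptor gene EPHA2 67119 and 66248 against 16626 and 17188 (log2 fold change 1.98), and the ERK-dependent factor ETV4 was lower at -1.76.

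Within the EGF receptor family, 4 genes were higher and 6 lower of 11 tested (median -1.15). That median rested on the members that passed the filter, since it was 0 without a filter. EGFR itself had 8960 and 8627 normalized counts against 4399 and 4444 (log2 fold change 0.99), whereas ERBB3 had 4794 and 5698 against 30781 and 30779 (log2 fold change -2.56, limma adjusted p = 1.41e-16) and ERBB2 4873 and 5422 against 11498 and 11289 (log2 fold change -1.15). The ligands AREG, EREG and BTC were lower, at -1.51, -1.75 and -1.77. For EREG the histidine-depleted libraries had 5058 and 5032, the untreated 8269 and 8698 and the tryptophan-depleted 16654 and 17380.

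Integrins and laminins were higher in 7 and lower in 7 of 18 (38.9% each, median -0.04), close to the 38.7% and 38% of all tested genes, and matrix proteases with plasminogen activators in 9 and 9 of 20 (median 0.11). The protease median was 0.0079 without histidine depletion replicate 1 and -0.0075 without tryptophan depletion replicate 1. ITGB1, the common beta1 chain, had 50661 and 49789 against 49931 and 51167 and was not called, whereas its partners ITGA1 and ITGA2 were higher at 1.91 and 1.74 and ITGB4 of hemidesmosomes was lower at -1.76. MMP7, an epithelial matrix protease, had 15121 and 15054 against 4388 and 4292 (log2 fold change 1.80), and ADAM8, a membrane protease, 633.4 and 677.6 against 3783 and 3817 (log2 fold change -2.53). Of 18 epithelial-mesenchymal genes, 9 were higher and 8 lower (median 0.11). FSCN1, the actin bundler fascin, was higher at 1007 and 1033 against 171.8 and 171.2 (log2 fold change 2.57). The collagen gene COL4A1 was lower at 18.1 and 8.14 against 124.8 and 126.4 (log2 fold change -3.26). CDH1, E-cadherin, was lower at -0.24, and VIM, vimentin, was below the filter. Tight junction and keratin genes were higher in 10 and lower in 12 of 25, with CLDN1 at 9152 and 8521 against 1516 and 1531 (log2 fold change 2.53) and CLDN2 at 152.7 and 225.9 against 1007 and 1040, both below the 3746 and 3827 of untreated cells (log2 fold change -2.46).

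Genes of the intestinal lineages were mostly lower. Of 22 tested goblet and secretory genes, 16 were lower and 1 higher, with a median of -1.39, from -1.66 to -1.03 over the library pairs. MUC5AC, a gel-forming mucin (chromosome 11, 1157953 to 1201138), had 451.7 and 434.5 normalized counts after histidine depletion, 30848 and 28098 after tryptophan depletion and 2279 and 2441 untreated (log2 fold change -6.05, SE 0.0514, limma adjusted p = 3.94e-21). MUC5B, its neighbour, had 1.81 and 10.2 against 521.8 and 545.7. MUC2, the main intestinal gel mucin, had 109.3 and 178.1 against 661.6 and 536.6, with 761.8 and 728.1 untreated, so that its tryptophan-depleted libraries were not above untreated ones as those of MUC5AC were (log2 fold change -2.09). SPDEF, a transcription factor of goblet cells, was at -2.65, MUC12 was the higher member at 1.15, and MUC13 was not called (interval from -0.045 to 0.14).

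WNT targets and stem cell genes were lower in 14 and higher in 5 of 22 (median -0.70). RNF43, a ubiquitin ligase that removes WNT receptors, had 1579 and 1624 against 7911 and 7914 (log2 fold change -2.30), though 68.4% of its exonic length is shared with a gene on the same strand, and ASCL2, a stem cell transcription factor, had 20.8 and 31.5 against 140.9 and 149.3, with 294 and 341.2 untreated (log2 fold change -2.46). LGR5, the stem cell receptor, was low after both depletions, at 71.4 and 87.5 and at 70.4 and 50.4, against 764 and 759.9 untreated (log2 fold change 0.40, limma adjusted p = 0.0286). HNF4A, a transcription factor of enterocyte identity, had 1006 and 1128 against 2968 and 2828, with 7153 and 7371 untreated (log2 fold change -1.44).

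Nearly every cell cycle gene on the lists was higher. Of 50 genes of DNA replication and S phase, 48 were higher and 1 lower (median 1.26), and of 52 genes of mitosis and G2/M, 51 were higher and 1 lower (median 1.60). Against the shared untreated libraries, the medians of the S phase list were -1.20 after histidine and -2.88 after tryptophan depletion, and those of the mitotic list -0.34 and -2.10. CDC45, of the replicative helicase, had 1731 and 1874 normalized counts after histidine depletion, 141.9 and 140.1 after tryptophan depletion and 3340 and 3322 untreated (log2 fold change 3.67, SE 0.0602, limma adjusted p = 6.36e-18). Both depletions were below untreated cells for CDC45, the tryptophan-depleted libraries by more. PCNA, the polymerase clamp, had 3594 and 3824 against 1187 and 1254 (log2 fold change 1.60), and RRM2, of ribonucleotide reductase, 3984 and 4157 against 771.5 and 757.3 (log2 fold change 2.41).

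UBE2C, a ubiquitin-conjugating enzyme of mitotic exit, had 7632 and 7455 against 915.6 and 901, with 7899 and 8419 untreated (log2 fold change 3.05, SE 0.0436, limma adjusted p = 1.4e-18). Its histidine-depleted libraries were close to untreated ones. ANLN, which encodes the cytokinesis protein anillin, was above untreated cells after histidine depletion (12012 and 11548, against 5510 and 5657) and below them after tryptophan depletion (1204 and 1349, log2 fold change 3.21). MKI67, the proliferation marker Ki-67, had 12860 and 12771 against 4526 and 4820, with 22314 and 23805 untreated (log2 fold change 1.46). CDCA7 and CDC25B were the lower members, at -0.61 and -0.14, and POLD3, a DNA polymerase delta subunit, was not called (interval from -0.13 to 0.092).

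The E2F element GGCGGGAA was present in 11 of the 42 windows found for S phase genes (26.2%), against 4.95% of the windows of tested genes, and the cell cycle homology element TTTGAA in 29 of 43 mitotic windows (67.4%), against 10.0%. CDT1, a replication licensing factor with a fold change of 1.91 (chr16:88803725-88803812, plus strand), and UHRF1, a reader of hemimethylated DNA with 2.54 (chr19:4909357-4909444, plus strand), had the largest differences among genes with an E2F match and are shown with it in capitals.
CDT1: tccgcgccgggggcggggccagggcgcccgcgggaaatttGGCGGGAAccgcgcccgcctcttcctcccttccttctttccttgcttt
UHRF1: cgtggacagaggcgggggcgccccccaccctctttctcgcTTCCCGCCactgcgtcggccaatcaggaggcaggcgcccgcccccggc

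Replication-dependent histone genes, with 30 of 57 tested, were higher in 29 and lower in none, with a median of 2.24 (2.13 to 2.25 over the library pairs) and 27 by at least 1. Their medians against untreated were 3.15 after histidine and 0.99 after tryptophan depletion, which is another order than that of the S phase list. H2BC4 (chromosome 6, 26086317 to 26123926) had 1695 and 1668 normalized counts after histidine depletion, 76.8 and 68.7 after tryptophan depletion and 32.8 and 36.8 untreated (log2 fold change 4.51, SE 0.127, limma adjusted p = 2.24e-15), and H4C8 2597 and 2605 against 123.8 and 148.3 (log2 fold change 4.25). H3C6, at 446.3 and 457.9 against 490.9 and 500.9, was not called by limma (adjusted p = 0.263). These mRNAs normally end in a stem-loop without a poly(A) tail, the libraries were made from polyadenylated RNA, and the genes resemble each other, so the counts cover only the part of the histone mRNA that such libraries hold.

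Inhibitors of cyclin-dependent kinases and p53 targets were higher in 19 and lower in 10 of 33 tested (median 0.47). CDKN1A, which encodes p21, had 8591 and 8181 against 1404 and 1381, with 1151 and 1216 untreated (log2 fold change 2.59, limma adjusted p = 1.69e-17). GADD45B, a stress-induced gene that is also in the YAP list, had 5480 and 5577 against 391.6 and 458.7 (log2 fold change 3.70), CCND1, cyclin D1, was at 1.54, and MDM2 was lower at -0.18. BCL2 family genes were higher in 10 and lower in 5 of 18 (median 0.36). The proapoptotic PMAIP1, which encodes NOXA, had 2226 and 2283 against 838.7 and 889.1 (log2 fold change 1.38), the antiapoptotic MCL1 was at 1.15, and BMF had 2600 and 2565 against 2514 and 2514, with 558.5 and 581.9 untreated, and was not called.

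Cholesterol synthesis genes were higher in 20 and lower in 9 of 32 tested (median 0.39), with HMGCS1 at 11417 and 11201 normalized counts against 4177 and 4168 (log2 fold change 1.44) and INSIG1, the sterol sensor partner, at 9616 and 9665 against 3247 and 3156 (log2 fold change 1.59). Glycolysis and hypoxia genes were higher in 20 and lower in 12 of 35 (median 0.32). CA12, a carbonic anhydrase (chromosome 15, 63321378 to 63381846), had 1032 and 1200 against 23916 and 23686, with 6218 and 6072 untreated (log2 fold change -4.42, SE 0.0542, limma adjusted p = 1.98e-19). ADM, adrenomedullin, had 2714 and 2776 against 451.4 and 489.9 (log2 fold change 2.54). TXNIP, a glucose-sensitive arrestin, was high after both depletions, at 95203 and 94892 and at 39267 and 39228, against 4164 and 4255 untreated (log2 fold change 1.28).

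Nuclear genes of the respiratory chain were higher in 33 and lower in 19 of 54 (median 0.32), with NDUFB9 of complex I at 23198 and 22882 against 6164 and 5940 (log2 fold change 1.93) and CYC1 of complex III at -1.40. The 13 transcripts of the mitochondrial genome held 1 higher and 5 lower genes, all within 0.40 of 0. MT-CYB had 130408 and 112756 against 89536 and 93911, with 127229 and 94727 untreated (log2 fold change 0.40, limma adjusted p = 0.000978). Its untreated libraries spanned nearly the whole range of the other 4, and it was not called by DESeq2 (log2 fold change 0.41, adjusted p = 0.0594), by limma without the trend (0.40, adjusted p = 0.0872) or with quantile normalization (0.20, limma adjusted p = 0.0877). Among the lower transcripts, MT-ATP8 (-0.31) and MT-ND6 (-0.30) were not called by DESeq2 (adjusted p = 0.287 and 0.208), by limma without the trend (adjusted p = 0.24 and 0.181), without a filter (limma adjusted p = 0.125 and 0.0746) or without histidine depletion replicate 2, where both were at -0.16 (limma adjusted p = 0.252 and 0.161). MT-ATP8 also lost its call without tryptophan depletion replicate 2 (-0.28, limma adjusted p = 0.0842). The list median of -0.20 became -0.31 without histidine depletion replicate 1 and -0.056 without histidine depletion replicate 2. MT-CO1 had 371429 and 310158 against 391833 and 413820 and was not called (limma adjusted p = 0.0511).

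For 861 of the tested genes the 95% confidence interval of the difference lay within 0.2 of 0 on the log2 scale, which bounds it rather than showing equality. Among them, the differences from untreated cells stood side by side at these values: TNFRSF10B (1.00 and 1.03), PPP1R15B (0.87 and 0.84), SLC38A1 (0.48 and 0.48), ITGB1 (0.57 and 0.58), OVOL1, an epithelial transcription factor (1.31 and 1.27), BMF (2.18 and 2.14) and MUC13 (-1.44 and -1.49). In each pair the first value belongs to histidine and the second to tryptophan depletion, and both rest on the same untreated libraries.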

How the data were processed

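RNA of HT29 cells (2 libraries for each of 3 conditions) was sequenced from polyadenylated, stranded libraries. The authors aligned reads with STAR 2.7.10a to GRCh38, counted them with HTSeq 2.0.5 on gencode 38 and divided the counts by DESeq2 size factors. The deposited values are thus a signal in normalized counts, and each depletion has its own table with separate size factors. The methods speak of exons of protein-coding genes, whereas the tables list 60676 genes, other types with reads included, so the stated counting and the files differ. The treatment of molecular identifiers, strand and multiply mapping reads is not given in the sources used here.

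Division of each column by its step recovered whole reads (100% of values, tolerance 0.01), 46390819 to 64388876 per library. New median-of-ratios size factors were then computed over the 6 libraries jointly. The test was that of limma 3.58.1 (R 4.3.3, mean-variance trend, two-sided, all 6 libraries, 3 residual degrees of freedom) on log2(normalized count + 1), with Benjamini-Hochberg adjustment over all 18264 genes and a threshold of 0.05. This scale understates the change of low genes. A fit on the 4 libraries of the comparison, edgeR 4.0.16 and DESeq2 1.42.0 on the recovered reads, and other scalings, filters and pseudocounts were tried as alternatives, and each library was left out in turn. On simulated counts of 18097 genes, limma recovered 87.6% of changes of log2 fold 1 and 70.0% of those of 0.5, with 4.32% false calls. The simulation changed few genes, equally up and down, and gave all genes and libraries the same extra spread. In the data most genes were called, so these rates need not hold there. Replicates differed by 1.85 to 8.77 times the counting noise (chi-square per degree of freedom, genes with at least 20 reads).

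The comparison, the gene lists and their members were chosen with earlier results of these data known. Named were the 15 protein-coding genes with the largest difference in each direction (mean of at least 100 in the higher group, groups not overlapping), 3 of other types, up to 3 members per list, each list's most abundant gene that was not called, and 19 genes by name. Some genes are not reported here, and list members named beyond this rule were chosen after their values were seen. Lists were described by counts and medians and were not tested as sets. Gene coordinates came from gencode 44, in which 60357 of 60676 identifiers were found. Promoter windows came from RefSeq (GRCh38.p14), matched by symbol. Plots were drawn with matplotlib 3.10.9 in Python 3.11.15.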

Additional observations from a re-analysis of the deposited data

How the results depend on the processing

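The counts of higher and lower genes stayed within 1.5 times 7068 and 6938 in all settings run except the requirement of a log2 fold change of at least 1, which left 2914 and 2880. DESeq2 called 6447 higher and 6212 lower, edgeR 7053 and 7187, and the fit on the 4 libraries of the comparison 7186 and 7026. With 1 library left out the counts ran from 6517 to 7178 and from 6412 to 7145, where a lone library is assumed to vary like the other groups. Leaving out each single untreated library was chosen after seeing the data, whereas the fit on 4 libraries was planned. A replicate block gave 7095 and 6974, but equal numbers do not pair these libraries (correlations of deviations between groups 0.117, -0.0527 and -0.104). The median of all genes, which the scaling itself largely sets, ran from -0.010 to 0.039 over the settings.

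Of the list medians under other settings, 661 moved by no more than the spread between library pairs, 138 moved by more and 11 changed sign or became 0. The cause was not tested. With the deposited values, the synthetases moved to 0.023 and the receptors to 0.0067. With a mean of at least 50, antimicrobial proteins moved to 0.047 and fibroblast markers to -0.83. Without a filter, the EGF receptor family moved to 0 and leukocyte markers to 0.16. With quantile normalization, matrix proteases moved to -0.017, and PPP1R15B and EIF4G2, which were not called by limma as first run, to -0.11 and -0.10 and became calls in that direction (adjusted p = 0.0117 and 0.00371). With 1 library left out, the medians ran from -0.02 to 0.029 for synthetases, from -0.041 to 0.03 for receptors, from -0.066 to 0.016 for integrins and from -0.0075 to 0.10 for matrix proteases. Other medians moved by over 1.5 times without changing sign. Quantile normalization gave -0.14 for synthetases, 0.023 for eIF2alpha genes, -0.057 for mTORC1 genes, -0.26 for ribosomal proteins and 0.17 for translation factors. A mean of at least 50 gave -0.47 for amino acid transporters, 0.46 for cytokines, 0.27 for matrix proteases and -1.12 for leukocyte markers. No filter gave -0.081 for tryptophan metabolism, -0.24 for antimicrobial proteins, 0.20 for matrix proteases and 0.22 for epithelial-mesenchymal genes. Antimicrobial proteins were at -0.58 in thinned libraries and fibroblast markers at 0.42 with a pseudocount of 8. Of the values of named genes, 3599 stayed on their side of the threshold, among them values near 0 that were called in neither fit and may have changed sign, 48 gained a call, 16 lost it and 2 changed sign with a call. With 2 libraries a condition, low counts limit the precision.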

Other observations

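Genes differed in the codons of the withdrawn amino acids by little. Over 13104 tested protein-coding genes with a coding sequence, histidine codons made up a median of 2.45% of a gene's codons. The median was 2.33% in the 5562 genes that were higher after histidine depletion and 2.54% in the 5389 that were lower, and 2.30% and 2.62% in those that differed by at least 1 on the log2 scale. Tryptophan codons had medians of 1.04% and 1.11%. The GC content of the coding sequence was likewise smaller in higher genes, with medians of 51.0% in higher and 54.3% in lower genes, whereas the share of histidine codons written as CAT was larger in higher genes, with 44.4% and 37.5%. Across genes, Spearman's rho with the fold change was -0.111 for the histidine codon share and -0.132 for coding GC content, which describes these genes only, since genes are not independent replicates and share libraries and base composition. The part of GC content in the codon difference was not tested.

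By chromosome, the share of higher genes ran from 31.8% on chromosome 9 to 44.6% on chromosome 6, leaving aside the mitochondrial genome and the Y chromosome, which have few genes. Chromosome 6 also carries the large histone clusters, whose part in its share was not tested.

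Among the genes of other types with the largest difference, LINC00943 on chromosome 12 had 334.3 and 313.4 normalized counts after histidine depletion against 2.13 and 1.83 after tryptophan depletion, and LINC02577 on chromosome 7 had 900.8 and 833.3 against 7.47 and 18.3. On the other side, the unprocessed guanylate cyclase pseudogene GUCY2EP on chromosome 11 had 3.61 and 2.03 against 192.1 and 179.5, with 37.2% of its exonic length shared with a gene on the same strand.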
